A study of Mus musculus with 4 samples.

Results

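The genes described here lie on mouse chromosome 9 between positions 44000000 and 54000000 (mm10), a 10 Mb segment that holds Pafah1b2 and Ttc12. A gene was a member when its locus lay inside the segment and 2 or more of the 4 tumors measured had it at 1 FPKM or above. FPKM, the fragments of a transcript scaled by its length and by the fragments mapped in the library, is a level that can be compared between genes. Of the 136 genes considered in the segment, 81 met this rule and 55 did not, against 12752 of 23746 over the whole genome. The same FPKM values chose the members, so their levels are given as a description, with no test of whether the segment stands apart.

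The study compared primary mammary tumors of female mice in which Cre, driven by Wap, deletes Brca1 and p53 (WapCre;Brca1;p53, called double-mutant) or deletes Rank as well (WapCre;Rank;Brca1;p53, called triple-mutant). Polyadenylated RNA was sequenced from 2 tumors of each genotype, 26043 and 26044 being triple-mutant and 26048 and 26050 double-mutant, so every group carried the Brca1 and p53 deletions. The Cre line is active in luminal and basal mammary epithelium without pregnancy, and stroma, vessels and immune cells keep their genes. Each library is 1 bulk tumor, with no age or grade given for it, and fewer cells of a type cannot be told apart from less RNA per cell.

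The segment is a gene neighbourhood rather than a pathway. Pafah1b2 encodes a catalytic subunit of platelet-activating factor acetylhydrolase 1b, whose other partner, Pafah1b1 (Lis1), also regulates the motor dynein. Ttc12 serves the assembly of the dynein arms that make cilia beat. Between and beyond them lie genes of DNA damage signaling (Atm, Usp28), chromosome segregation (Zw10), histone gene transcription (Npat), RNA processing (Rbm7, Rexo2, Ddx10), protein phosphorylation (Ppp2r1b, Sik2) and cell adhesion (Cadm1, Ncam1), with no common role that would make them one group.

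Tnfrsf11a, which encodes Rank, was at 2.07 and 0.962 FPKM in the triple-mutant tumors and at 10.6 and 11.9 FPKM in the double-mutant tumors. Its levels are ordered as the genotypes are labelled. The summed FPKM of a tumor was 690775 to 796031, and 12150 to 12681 genes reached 1 FPKM. The tables give no read depth, and the Cufflinks interval of a member had a median half-width of 7.32% to 8.07% of its FPKM. The FPKM of 33 to 40 of the 81 members lay outside its own interval, so the intervals are given below only as a side measurement.

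Of the 4 tumors, 26050 had the most raised members in the segment. A gene was called raised in a tumor when its log2(FPKM + 1) was at least 1 unit (2-fold) above the highest of the other 3, and lowered when it was at least 1 unit below the lowest. By this rule 19 of 81 members (23.5%) were raised in 26050, where 1.46% of all genes tested were. In 26043 it called 2 members (2.96% of all genes), in 26044 5 members (4.41%) and in 26048 1 member (1.51%). Lowered members numbered 1 in 26043 (0.737% of all genes), 7 in 26044 (4.8%), 0 in 26048 (0.627%) and 1 in 26050 (1.87%). Since the levels chose the segment, nothing is read from these shares. The 4 tumors differed by less than 1 log2 unit, lowest to highest, for 34 members and by 2 units or more for 35, with a median range of 1.52 over the members and 0.93 over all genes tested.

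**Figure D1:**
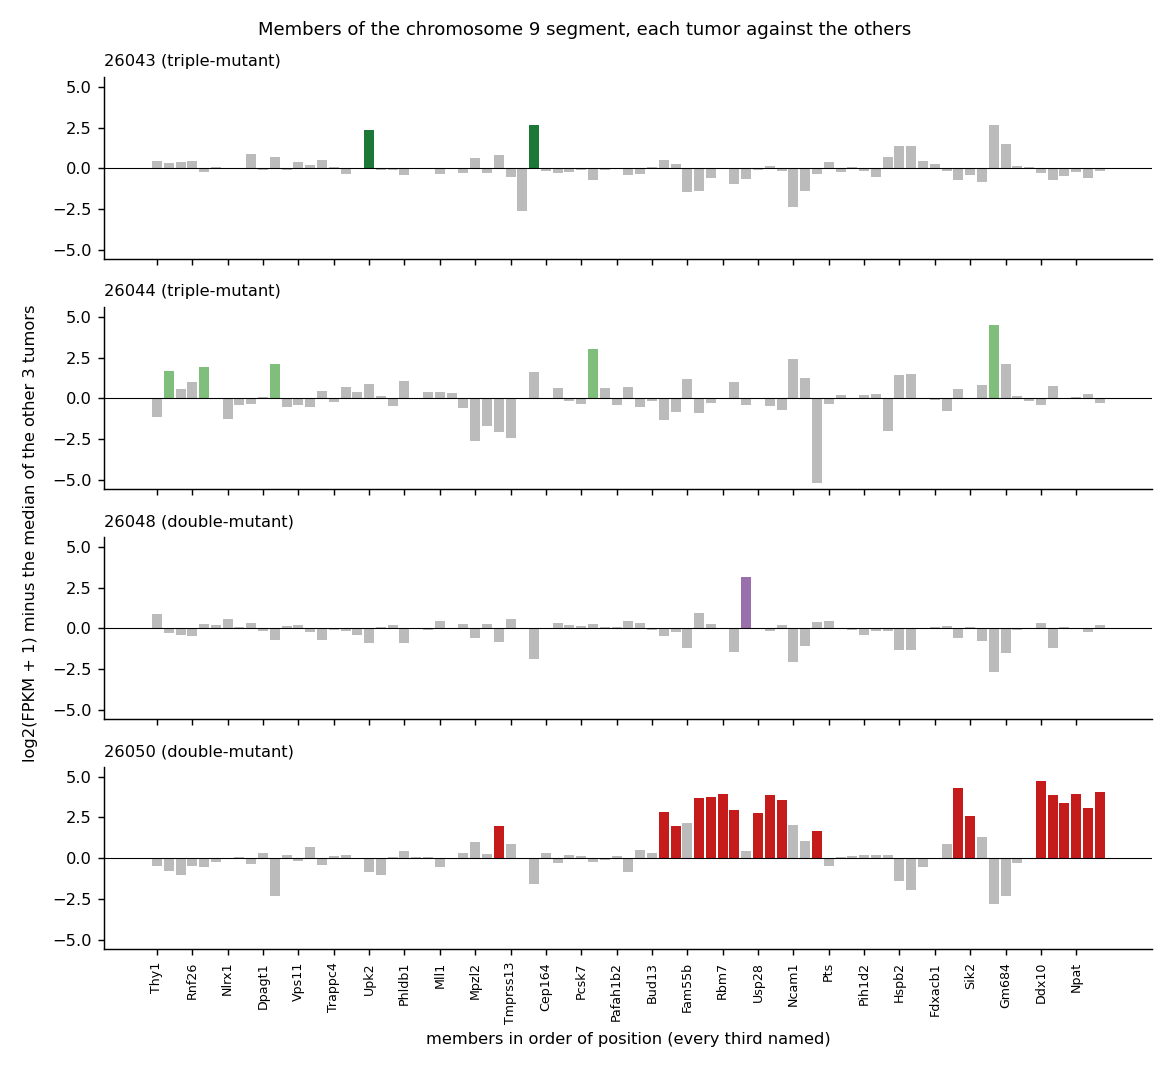
For each tumor, every bar is 1 of the 81 members in order of position and its height is log2(FPKM + 1) minus the median of the other 3 tumors; colored bars are members raised in that tumor. Tumor 26050 shows 19 colored bars that gather in blocks, and the other tumors show 2, 5 and 1, spread apart.

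Pafah1b2 itself was not raised in any tumor. Its FPKM was 33.1 in 26043, 25.2 in 26044, 34.4 in 26048 and 35.6 in 26050. The genotypes did not overlap, but the 4 values lay within 0.49 log2 unit of each other, and the triple-minus-double difference was -0.27 log2 unit (SE 0.29, limma, Benjamini-Hochberg adjusted p = 0.768). Its partners on other chromosomes were as level, with Pafah1b1 at 36.0, 27.5, 39.5 and 33.9 FPKM and Pafah1b3 at 87.6, 112, 82.3 and 124 FPKM in 26043, 26044, 26048 and 26050. Ttc12 was different. It stood at 1.86, 0.975 and 2.23 FPKM in 26043, 26044 and 26048 and at 32.6 FPKM in 26050, 14.6-fold above the highest of the other tumors. Of the pair that names the segment, Ttc12 therefore belongs to the raised genes and Pafah1b2 to the level ones. Where neighbouring genes are described as stretches below, the stretches were drawn after the values were seen, as runs of members raised in 26050 with at most 1 other member between them.

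The first stretch ran from Cadm1 to Ttc12 (chr9:47530352-49486225, 1956 kb), where 9 of 11 members were raised in 26050. Cadm1, a cell adhesion molecule of the immunoglobulin family, was at 22.4, 8.42 and 15.7 FPKM in 26043, 26044 and 26048 and at 116 FPKM in 26050. Fam55d (Nxpe4) was at 0.503, 1.09 and 2.93 FPKM in the same tumors and at 26.3 FPKM in 26050. Both were higher in 26050 than in any other tumor, by 5.19-fold and 8.996-fold over the highest. Rexo2, an oligoribonuclease of mitochondria, was at 60.3, 75.01 and 90.6 FPKM and reached 1046 FPKM in 26050. Rbm7, which brings RNA to the nuclear exosome, was at 26.7, 27.3 and 27.3 FPKM in the other tumors and at 438 FPKM in 26050. For Rbm7 the 3 lower tumors were nearly equal and the remaining one stood 16.0-fold above them. The predicted gene Gm5617, whose locus starts right behind that of Rbm7, had 16.5, 33.9, 11.7 and 133 FPKM, and Gm10677, which lies inside Cadm1, had 1.47, 0.393, 1.06 and 7.001 FPKM. Because Gm10677 shares 19049 bases with Cadm1 and the strand setting of the FPKM estimates is not given, reads of these 2 genes cannot be told apart.

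The distal end of the same stretch held Usp28, Zw10 and Ttc12. Usp28, a deubiquitinase linked to the DNA damage response, was at 3.15, 3.49 and 3.49 FPKM in 26043, 26044 and 26048 and at 29.4 FPKM in 26050. Zw10, a kinetochore protein of the spindle checkpoint, was at 13.9, 9.70 and 12.4 FPKM and at 194 FPKM in 26050. For Usp28 and Zw10 the 3 other tumors lay close together and 26050 stood alone. Over the 9 raised members of the stretch the fold of 26050 over the median of the others ran from 6.62 to 24.1, with a median of 13.9.

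The other 2 members within the stretch did not meet the rule in 26050. Nnmt, which methylates nicotinamide, was at 0.685, 0.978 and 1.65 FPKM in 26043, 26044 and 26050 and at 16.1 FPKM in 26048, the single member raised in that tumor. The fibroblast markers summed to 204, 123, 891 and 428 FPKM and the adipocyte markers to 7.58, 261, 1390 and 31.5 FPKM in 26043, 26044, 26048 and 26050, highest in 26048 for both lists. Among the 6 fibroblast markers Pdgfra was instead highest in 26044, at 19.1 FPKM against 2.90, 1.63 and 1.44, and Dcn in 26043, at 19.3 FPKM against 5.47, 13.7 and 13.0. Of the 10 markers of both lists, only Adipoq and Plin1 were listed at 0, both in 26044. The part of these lists in the level of Nnmt was not tested. Fam55b (Nxpe2) was at 0.175, 2.20, 0.402 and 5.27 FPKM, highest in 26050 but 0.97 log2 unit above 26044, just outside the rule. As a ratio of FPKM it was 13.1-fold above the median of the others and 2.39-fold above the highest.

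**Figure D2:**
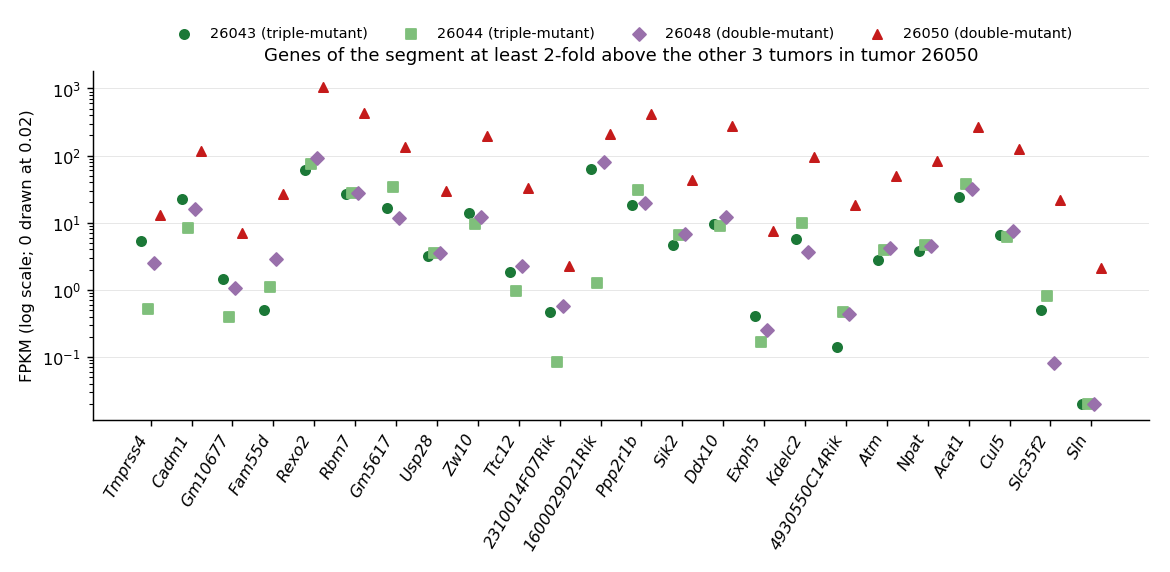
FPKM on a log axis, 1 point per tumor, for the 19 members raised in 26050 and the 5 genes below the filter that meet the same rule, in order of position. The triangle of 26050 lies above the other 3 points for every gene, from 2.49-fold above the highest of them for Tmprss4 to 23.1-fold for Ddx10 among the members.

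A second, short stretch held Ppp2r1b and Sik2 (chr9:50856935-51009073, 152 kb), both raised in 26050. Ppp2r1b, a scaffold subunit of protein phosphatase 2A, was at 18.3, 30.5 and 19.9 FPKM in 26043, 26044 and 26048 and at 410 FPKM in 26050. Sik2, a salt-inducible kinase, was at 4.72, 6.47 and 6.77 FPKM and at 43.4 FPKM in 26050. The loci of the 2 genes share 1429 bases, so a part of the reads of one could have been given to the other.

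The last stretch ran from Ddx10 to Cul5 (chr9:53098454-53667507, 569 kb) and all of its 6 members were raised in 26050. Ddx10, an RNA helicase, had the largest margin of the segment, with 9.66, 8.97 and 12.0 FPKM in 26043, 26044 and 26048 and 279 FPKM in 26050. Kdelc2 (Poglut3), a glucosyltransferase of the endoplasmic reticulum, was at 5.63, 9.96, 3.69 and 96.8 FPKM. Atm, the kinase that signals DNA double-strand breaks, was at 2.81, 3.94 and 4.19 FPKM in the lower tumors and at 50.4 FPKM in 26050. These 3 genes were at or under 12.0 FPKM in 26043, 26044 and 26048 and at 50.4 to 279 FPKM in 26050. Npat, a coactivator of histone genes, was at 3.83, 4.68, 4.42 and 82.5 FPKM. Acat1, a mitochondrial thiolase of ketone body and isoleucine breakdown, was at 24.2, 37.3, 31.3 and 268 FPKM. Cul5, the scaffold of a family of ubiquitin ligases and the last member of the segment, was at 6.51, 6.06, 7.57 and 124 FPKM. Over the 6 members the fold of 26050 over the median of the others ran from 8.57 to 28.9, with a median of 17.9. The next gene that met the filter beyond the border, Dmxl2, was at 0.417, 1.15, 2.01 and 1.31 FPKM and was not raised in 26050, nor was Pvrl1, the last gene before the segment, at 25.5, 16.8, 7.59 and 4.02 FPKM.

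Since neighbours within these stretches were raised together, the sequence before the start of 1 gene of each of the first 2 stretches and of 3 genes of the last is shown, Atm and Npat among them because their loci lie head to head with 375 bases between them. Each run is the 250 bases upstream of the RefSeq transcription start on GRCm38.p6, read 5′ to 3′ on the strand of the gene, and capitals mark the CCAAT box (CCAAT, read on the other strand as ATTGG) and the GC box (GGGCGG, read on the other strand as CCGCCC). No match of one overlaps a match of the other in these windows. The windows are chr9:48480612-48480861 on the minus strand for Rexo2, chr9:50856674-50856923 on the plus strand for Ppp2r1b, chr9:53248113-53248362 on the minus strand for Ddx10, chr9:53536672-53536921 on the minus strand for Atm and chr9:53536797-53537046 on the plus strand for Npat.
Rexo2: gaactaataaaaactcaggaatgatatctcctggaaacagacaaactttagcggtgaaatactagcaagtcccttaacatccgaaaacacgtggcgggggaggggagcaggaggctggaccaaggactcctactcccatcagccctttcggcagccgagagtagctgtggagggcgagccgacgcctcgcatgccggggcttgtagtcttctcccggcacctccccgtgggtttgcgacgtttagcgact
Ppp2r1b: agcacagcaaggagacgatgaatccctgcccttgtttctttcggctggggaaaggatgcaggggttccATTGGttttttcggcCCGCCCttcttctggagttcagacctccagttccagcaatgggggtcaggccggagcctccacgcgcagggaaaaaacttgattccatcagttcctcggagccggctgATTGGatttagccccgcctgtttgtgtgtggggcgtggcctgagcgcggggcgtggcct
Ddx10: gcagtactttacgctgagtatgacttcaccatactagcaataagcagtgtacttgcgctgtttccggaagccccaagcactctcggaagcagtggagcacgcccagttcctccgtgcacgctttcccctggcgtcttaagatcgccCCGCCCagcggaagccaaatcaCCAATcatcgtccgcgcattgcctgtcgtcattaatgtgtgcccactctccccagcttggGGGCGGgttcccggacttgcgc
Atm: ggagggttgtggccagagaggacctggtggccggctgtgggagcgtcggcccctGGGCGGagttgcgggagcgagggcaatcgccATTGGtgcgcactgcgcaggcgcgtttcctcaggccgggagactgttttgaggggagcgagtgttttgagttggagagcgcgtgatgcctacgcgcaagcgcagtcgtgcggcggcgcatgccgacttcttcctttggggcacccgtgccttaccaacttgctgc
Npat: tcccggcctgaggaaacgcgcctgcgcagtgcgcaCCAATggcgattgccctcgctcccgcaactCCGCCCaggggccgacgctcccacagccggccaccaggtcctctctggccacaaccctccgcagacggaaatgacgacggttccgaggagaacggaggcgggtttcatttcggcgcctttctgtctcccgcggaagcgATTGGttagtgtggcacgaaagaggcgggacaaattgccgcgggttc
Rexo2 held neither motif in this window, while Ppp2r1b, Ddx10, Atm and Npat each held both, with 2, 1, 1 and 2 matches of CCAAT and 1, 2, 1 and 1 of GGGCGG. The TATA box (TATAAA, read on the other strand as TTTATA) was in none of the 5. Of the 32851 promoters in the RefSeq table, 33.8% held CCAAT, 32.7% held GGGCGG and 12.4% held TATAAA over the same length. The 5 windows held 14 to 28 CG dinucleotides, where the median promoter held 6. The windows of Atm and Npat overlap, so they are not 2 separate sequences. A match is a run of letters and not a shown binding site.

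In 3 of the 4 gaps between the raised members the median member was close to the other tumors in 26050. The gap from Tmprss4 to Cadm1 (2326 kb) held 13 members, Pafah1b2 among them, whose median difference between 26050 and the median of the others was 0.10 log2 unit (-1.61 to 0.90). The gap before Ppp2r1b (351 kb) held 11 members with a median of 0.06 log2 unit (-1.96 to 0.87), and the 5 members in the 2089 kb between Sik2 and Ddx10 had a median of -0.29 log2 unit (-2.80 to 1.29). The remaining gap, the 1008 kb between Ttc12 and 1600029D21Rik (Plet1), held Ncam1 and Gm11149, at 2.05 and 1.08 log2 units. Pts, an enzyme of tetrahydrobiopterin synthesis, was at 17.5, 13.4, 18.6 and 12.3 FPKM in 26043, 26044, 26048 and 26050. Fdx1, an electron carrier of mitochondria, was at 34.3, 33.9, 30.7 and 27.7 FPKM, and Rdx, which ties actin to the membrane, was at 38.7, 33.5, 36.1 and 37.0 FPKM. The levels of these 3 genes in 26050 differed little from those in the other tumors although raised genes lay on both sides. Alg9, a mannosyltransferase of N-glycan assembly next to Ppp2r1b, was at 22.8, 14.1, 25.4 and 42.5 FPKM, 0.72 log2 unit above the highest of the others and outside the rule.

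**Figure D3:**
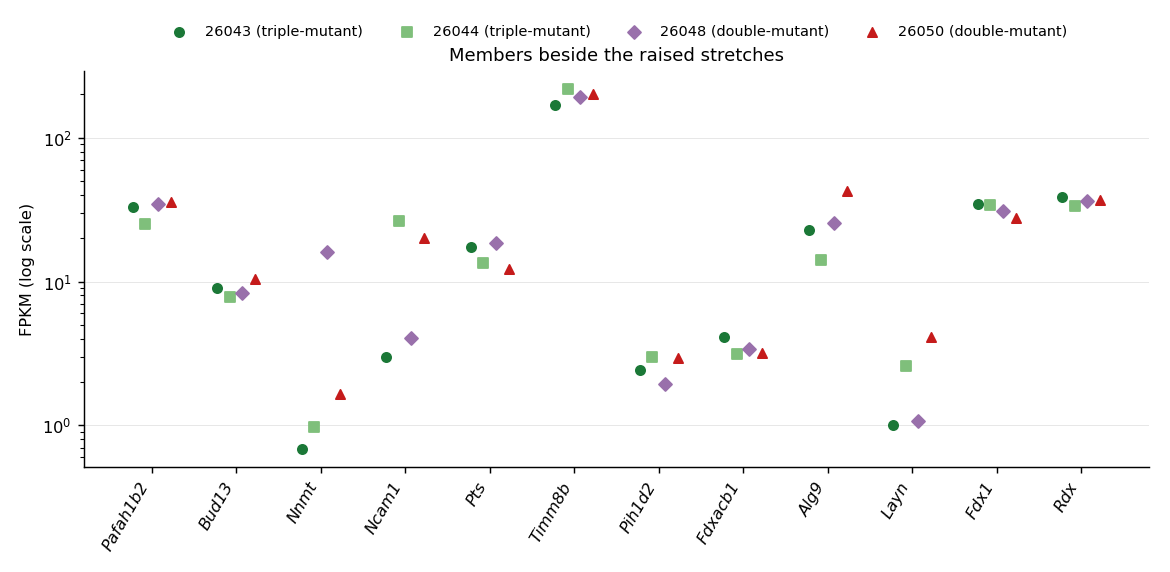
FPKM on a log axis, 1 point per tumor, for 12 members that lie beside or between the raised stretches. For Pafah1b2, Fdx1 and Rdx the 4 points nearly coincide, Nnmt is highest in 26048, and Ncam1 is high in 26044 and 26050.

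Ncam1, a neural cell adhesion molecule that follows directly on Ttc12, was high in a pair of tumors, with 26.3 FPKM in 26044 and 19.9 FPKM in 26050 against 3.01 in 26043 and 4.04 in 26048. By the pair rule, under which the lower of the pair must exceed the higher of the other pair by 1 log2 unit, 26044 and 26050 shared 3 members (Fam55b, Ncam1 and Gm11149), where 0.314% of all genes tested met the rule. Gm11149 lies inside Ncam1 and shares 49738 bases with it.

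A pair of single members was raised in 26050 at some distance from the stretches, with smaller margins. Tmprss4, a membrane serine protease, was at 5.30, 0.520, 2.54 and 13.2 FPKM in 26043, 26044, 26048 and 26050. The locus named 1600029D21Rik (Plet1), a surface protein of epithelial progenitors, was at 63.0, 1.26, 80.8 and 206 FPKM. Both were lowest in 26044. They were also just inside the rule, at 1.17 and 1.34 log2 units above the highest of the others.

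The filter asks for 2 tumors, so a gene expressed in 26050 alone could not be a member. Among the 55 genes below it, 5 met the raised rule in 26050 and 1 in another tumor, and they were looked up after the members had been seen. The share over all genes below the filter is not given, so nothing is read from these counts. In the last stretch, Exph5, an effector of vesicle transport, was at 0.404, 0.168, 0.250 and 7.56 FPKM in 26043, 26044, 26048 and 26050, and 4930550C14Rik was at 0.140, 0.468, 0.435 and 18.5 FPKM. Slc35f2, a solute carrier that starts after Cul5, was at 0.507, 0.819, 0.0817 and 21.9 FPKM. These 3 genes lie within or just beyond the stretch and stood, like its members, far higher in 26050 than in the rest. Sln, a regulator of the calcium pump of muscle, was listed at 0 in 26043, 26044 and 26048 and at 2.09 FPKM in 26050. The skeletal muscle markers summed to 0.707, 0.638, 0.653 and 29.8 FPKM, highest in 26050, with Myh1 and Myh4 of the 5 under 1 FPKM in every tumor and Myh4 listed at 0 in 26044, and their part in the level of Sln was not tested. The remaining gene, 2310014F07Rik, overlaps Plet1 over 10281 bases and had 0.470, 0.0854, 0.569 and 2.27 FPKM. The gene raised in another tumor was Ttc36, with 8.96 FPKM in 26043 and 0.969, 0.741 and 0.428 in the rest.

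Summed over the 19 members raised in 26050, FPKM was 291 in 26043, 270 in 26044, 341 in 26048 and 3596 in 26050. The 62 other members summed to 3296, 5054, 3347 and 3495 FPKM. The 19 members are highest in 26050 by the rule that chose them, and the sum of the 62 others in 26050 lay within the range of the other tumors. All members together made up 0.519%, 0.669%, 0.520% and 0.955% of the summed FPKM. In 19 of 19 raised members the lower Cufflinks bound in 26050 was above the upper bounds of the other tumors, although the FPKM of 26050 lay inside its own interval for 7 of the 19. The bounds come from the libraries that chose these members, so they are no separate support.

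Along the whole chromosome, a median over 11 neighbouring genes of log2(FPKM + 1) minus the median of the other tumors placed the rise of 26050. In the segment it reached 3.06 in 26050, at Ddx10, and was at least 1 at 23 of 81 positions. In 26043, 26044 and 26048 it stayed at or under 0.43, 0.59 and 0.21 in the segment. Elsewhere on the chromosome it was at least 1 at 0 of 644 positions in 26050, where its highest value was 0.38, and at 2 of 644 in 26048. By intervals of 1 Mb, the median in 26050 was 2.38 over the 2 members starting at 47 Mb, 2.94 over the 7 at 48 Mb, 2.80 over the 4 at 49 Mb and 3.91 over the 6 at 53 Mb. It was -0.04 over the 27 members at 44 Mb, 0.13 over the 13 at 45 Mb, 0.30 over the 3 at 46 Mb, 0.16 over the 14 at 50 Mb and -1.30 over the 4 at 51 Mb. In the 5 Mb before the segment the median of 26050 was -0.67 over 14 genes, and in the 5 Mb after it was -0.28 over 55 genes. The median over all genes tested was -0.04 in 26050 and between -0.13 and 0.08 in the other tumors.

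**Figure D4:**
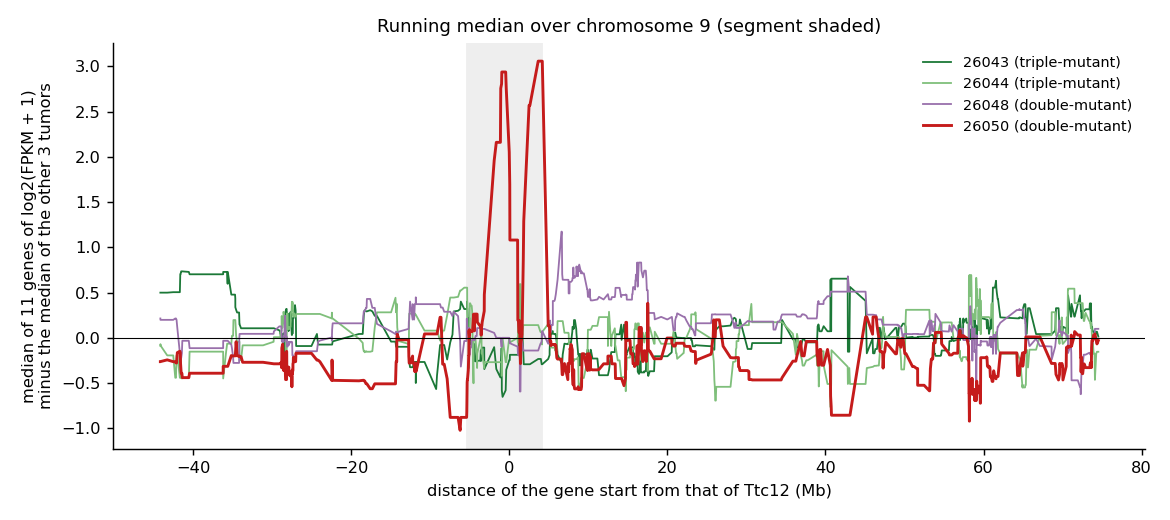
Running median over 11 neighbouring genes of log2(FPKM + 1) minus the median of the other 3 tumors along chromosome 9, 1 line per tumor, against the distance of the gene start from that of Ttc12 in Mb; the segment is shaded. The line of 26050 has 2 peaks inside the shading, up to 3.06, and does not exceed 0.38 outside it.

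The members raised in the triple-mutant tumors were other genes, mostly at the proximal end of the segment. In 26044 these were Usp2, Mcam, H2afx, Tagln and Pou2af1. Tagln, an actin-binding protein of smooth muscle, was at 307 FPKM in 26044 and at 26.7, 44.3 and 37.6 FPKM in 26043, 26048 and 26050. Mcam, an adhesion molecule of vessel walls, was at 124 FPKM against 31.4, 37.8 and 25.9 FPKM, and the deubiquitinase Usp2 was at 10.03 FPKM against 3.27, 2.42 and 1.42 FPKM. The endothelial markers summed to 19.0, 64.0, 34.4 and 19.0 FPKM in 26043, 26044, 26048 and 26050, also highest in 26044, as were 3 of the 4 markers. Tek was highest in 26048, at 1.58 FPKM against 0.700, 0.711 and 0.563 in 26043, 26044 and 26050, and no marker was at 0. The part of this list in the levels of Mcam and Tagln was not tested.

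H2afx (H2ax), the histone variant that is phosphorylated at DNA breaks, differed in all 4 tumors, with 178 FPKM in 26043, 473 in 26044, 109 in 26048 and 34.9 in 26050. It was raised in 26044 and lowered in 26050, the reverse of Tmprss4 and Plet1, which were raised in 26050 and lowered in 26044. In all 4 tumors its interval lay below the FPKM given, at 137 to 148 FPKM in 26044 and 10.8 to 13.6 FPKM in 26050, so its 4 values are uncertain. In 26043 the raised members were Upk2, a uroplakin, and Fxyd2, a regulatory subunit of the sodium pump. Upk2 was at 5.43, 1.33, 0.222 and 0.286 FPKM and was also the member closest to the filter, while Gm6981, the nearest gene outside it, had a second highest level of 0.972 FPKM.

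Lowered members were most numerous in 26044, and 4 of the 7 follow each other in the segment. Mpzl2 and Mpzl3, adhesion proteins of the myelin protein zero family, were at 2.48 and 1.94 FPKM in 26044, against 20.2, 13.0 and 26.8 FPKM and against 6.996, 8.66 and 8.59 FPKM in 26043, 26048 and 26050. Tmprss4 and the related protease Tmprss13 were at 0.520 and 0.952 FPKM in 26044. For Tmprss13 the other tumors had 6.18, 9.47 and 12.4 FPKM. All 4 of these neighbours had their lowest level in 26044, with no overlap with the other tumors. Plet1 was lowered most, at 1.26 FPKM, and Nlrx1, an innate immune receptor of mitochondria, was at 3.05 FPKM against 8.77, 13.3 and 8.52 FPKM. The luminal epithelial markers Krt8, Krt18, Krt19 and Epcam summed to 2703, 398, 2092 and 1804 FPKM in 26043, 26044, 26048 and 26050, lowest in 26044 as well. Krt19 alone went another way, with 1154, 194, 139 and 56.7 FPKM and its lowest level in 26050. The part of these markers in the levels above was not tested. Fxyd6, another regulator of the sodium pump and a direct neighbour of Fxyd2, was the one member lowered in 26043, at 4.49 FPKM against 32.5, 32.9 and 33.2 FPKM.

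**Figure D5:**
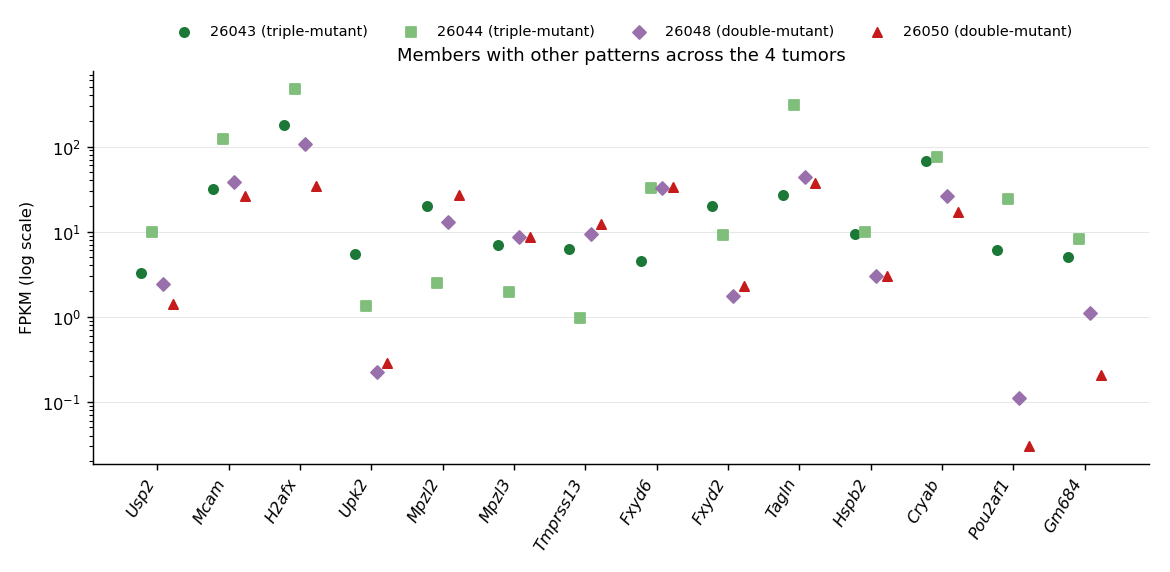
FPKM on a log axis, 1 point per tumor, for 14 members with patterns other than a rise in 26050, in order of position. Usp2, Mcam, H2afx and Tagln are highest in 26044, the points of Mpzl2, Mpzl3 and Tmprss13 are lowest there, and Hspb2, Cryab, Pou2af1 and Gm684 are higher in both triple-mutant tumors.

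Between the genotypes, 5 members met the pair rule on log2(FPKM + 1) in the triple-mutant tumors (Fxyd2, Hspb2, Cryab, Pou2af1 and Gm684), where 2.63% of all genes tested did. Pou2af1, a transcriptional coactivator known from B cells, was at 6.15 and 24.4 FPKM in 26043 and 26044 and at 0.112 and 0.0302 FPKM in 26048 and 26050. Of the B cell markers, Ms4a1 was at 0.0132 and 0.0123 FPKM in 26043 and 26044 and listed at 0 in 26048 and 26050, and Cd79a was at 0.145, 0.259, 0.484 and 0.166 FPKM. Both were under 1 FPKM in every tumor, and their part in the level of Pou2af1 was not tested. Its neighbour Gm684 (Colca2) was at 5.03 and 8.25 FPKM against 1.11 and 0.208 FPKM. Cryab, a small heat shock protein, was at 68.3 and 74.9 FPKM against 25.9 and 16.8 FPKM, and Hspb2, its head-to-head neighbour 403 bases away, was at 9.44 and 9.997 FPKM against 3.04 and 3.03 FPKM. Fxyd2 was at 20.0 and 9.10 FPKM against 1.74 and 2.30 FPKM. The genotypes did not overlap for these genes, and within each genotype the 2 tumors of Hspb2 were nearly equal.

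In the double-mutant tumors no member met the pair rule, where 1.42% of all genes did. Fam55d fell short at 0.91 log2 unit, with 2.93 and 26.3 FPKM in 26048 and 26050 against 0.503 and 1.09 FPKM. Upk2 likewise fell short in the triple-mutant pair, at 0.86 log2 unit. In the 19 members raised in 26050, the summed FPKM of the other double-mutant tumor, 341, was close to the 291 and 270 of the triple-mutant ones. The remaining pairs, which cross the genotypes, had 0 members for 26043 and 26048 (1.18% of all genes), 0 for 26043 and 26050 (0.439%) and 0 for 26044 and 26048 (0.447%). Without regard to size, the genotypes did not overlap for 13 members that were higher in triple-mutant tumors (21.3% of all genes) and for 23 that were higher in double-mutant tumors (22.9%).

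In limma on log2(FPKM + 1) over all genes tested, no member passed a Benjamini-Hochberg adjusted p of 0.05 between the genotypes, and neither did any other gene (0% of all genes). At an unadjusted p under 0.05 there were 7 members (H2afx, Upk2, Fxyd2, Hspb2, Cryab, Pou2af1 and Gm684), with 9.82% of all genes, and no other test was run. The largest triple-minus-double differences among members without overlap were 3.65 log2 units for Pou2af1 (SE 0.67, limma adjusted p = 0.292), 2.28 for Fxyd2 (SE 0.47, limma adjusted p = 0.342) and 2.23 for Gm684 (SE 0.45, limma adjusted p = 0.335). In the other direction they were -3.44 for Plet1 (1600029D21Rik, SE 1.68, limma adjusted p = 0.568), -2.55 for Fam55d (SE 0.99, limma adjusted p = 0.514) and -2.55 for Ddx10 (SE 1.49, limma adjusted p = 0.615). Over the 19 members raised in 26050 the median difference was -1.91 log2 units with all tumors and -0.17 without 26050, and without 26048 it was -3.82. These members were chosen for being highest in 26050, a double-mutant tumor. The negative medians that include 26050 follow from that choice, so no genotype difference is read from them. The median difference was -0.13 over all 81 members and -0.02 over all genes tested.

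Grouped by role, with lists written when earlier results were known, the genes raised in 26050 were spread over most groups and limma called none in any group. Over all members 23.5% were raised in 26050 and over all genes tested 1.46%. The lists are short and overlap, with Atm, Usp28 and H2afx counted repeatedly, so nothing is read from the counts by group. Of 4 kinases and phosphatases 3 were raised (Ppp2r1b, Atm and Sik2), and the remaining one, Sik3, was at 7.14, 12.0, 10.03 and 5.003 FPKM in 26043, 26044, 26048 and 26050. Of 6 genes of RNA processing and decay 3 were raised (Ddx10, Rexo2 and Rbm7). Of 6 genes of DNA damage and chromosome segregation 3 were raised (Zw10, Atm and Usp28) and H2afx was lowered. Cep164 and Pafah1b2, the rest of that group, were neither. Of 7 genes of ubiquitin ligation and removal, Usp28 and Cul5 were raised, and of 9 genes of mitochondria and small-molecule metabolism, Acat1 alone. Of 11 genes of adhesion, cytoskeleton and matrix, Cadm1 was raised. One gene each was raised among 6 of chromatin and transcription (Npat), 6 of vesicle traffic and cilia (Ttc12), 5 of the endoplasmic reticulum (Kdelc2) and 4 membrane proteases (Tmprss4). No member of the ion transport group (Fxyd2 and Fxyd6) or of the small heat shock proteins (Hspb2 and Cryab) was raised in 26050. Of 6 lymphocyte receptor genes in the segment Thy1, a surface protein of T cells and fibroblasts and the first member of the segment, alone met the filter, at 35.2, 15.6, 47.2 and 25.2 FPKM. The T cell markers summed to 10.4, 8.40, 6.53 and 7.73 FPKM, with 5 of the 7 under 1 FPKM in every tumor. The largest part was Lck, at 6.52, 5.67, 3.11 and 6.65 FPKM, and Cd4 was highest in 26044. Each of the 5 low markers was instead highest in 26043 or 26048. Their part in the level of Thy1 was not tested. The 4 apolipoprotein genes of the segment did not meet the filter.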

How the data were processed

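RNA of 4 primary mouse mammary tumors was analysed from the tables of FPKM that the authors deposited, 1 per tumor, each giving a gene's locus, FPKM, the bounds of its Cufflinks interval in FPKM and a status. The submitters' processing notes name mm10, TopHat2 2.0.10, Bowtie 0.12.9, HTSeq, Cufflinks 2.1.1 and DESeq2 1.6.2. The strand setting and annotation of the FPKM estimates are not given in the sources used here, and read counts were not analysed here. Coordinates are on mm10 and start from 1 (the starts given in the tables plus 1). FPKM keeps no read depth, so no counting interval is given.

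The tables were joined on symbol and locus. Genes that reached 1 FPKM in 2 tumors or more were kept. Their log2(FPKM + 1) was fitted together with limma 3.58.1 (lmFit, eBayes with a trend, 2-sided) in R 4.3.3 for the difference of triple-mutant from double-mutant tumors, and p was adjusted by Benjamini-Hochberg and called under 0.05. The p-values set the difference between genotypes against the spread of the 2 tumors within each genotype. That spread is moderated with the values of all genes tested. A fold change on the log2(FPKM + 1) scale understates the change of low genes. Folds given as such are ratios of FPKM, apart from the thresholds of 2-fold and 1.5-fold, which are on FPKM + 1. Raised and lowered genes, pairs of tumors and running medians were computed as described with the results in Python 3.11.15, with no test. The limma step was tested on simulated data.

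The members and all lists were chosen with earlier results of these data known. Named were Pafah1b2 and Ttc12; for each tumor up to 6 members raised and 3 lowered in it by the largest margin; up to 4 raised in each pair of tumors; in each role list up to 3 of widest range; the 3 of largest difference in each direction between genotypes that did not overlap; and those at the filter and the borders. Further genes of the stretches and gaps, Plet1 and the genes below the filter were named after their values were seen. Predicted genes are mostly counted only. All 81 members matched RefSeq by symbol or synonym. Results for 4 further genes of the segment and the sum of 1 marker list are not reported here. Alternatives were another pseudocount, filter, scaling, window, threshold or limma setting, and leaving out a tumor.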

Additional observations from a re-analysis of the deposited data

How the results depend on the processing

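The paper describes the females of the compared genotypes as littermates. The labels give no litter for any tumor, so no paired analysis was possible. Of 197 alternative values 155 stayed close to those reported, 42 moved and 0 turned direction. Most of these values are counts, which cannot turn direction, so the 0 is no support. The 19 members raised in 26050 were 19 to 23 when another tumor was left out. They were 13 with a filter of 5 FPKM and 24 with no filter. In limma, quantile normalization called 6 of all genes and no trend called 5, none of them members. Lowered members in 26043 became 2 with a pseudocount of 0.1, and those in 26050 became 2 with that pseudocount, 2 with TPM and 5 at 1.5-fold. The pair 26043 and 26050 gained 1 member with a pseudocount of 0.1 and 2 at 1.5-fold. The pair 26044 and 26050 had 5, 1 and 7 members with a pseudocount of 0.1, a filter of 5 FPKM and a threshold of 1.5-fold, and the pair 26048 and 26050 had 1 with that pseudocount, 1 with TPM and 1 at 1.5-fold. Raised members in 26043 fell to 1 with a filter of 5 FPKM and 1 with quantile normalization, and those in 26048 to 0 with that filter. The highest running median of 26050 was 1.96 over 21 genes, 3.42 with a pseudocount of 0.1 and 2.57 with a filter of 5 FPKM, and that of 26043 was 0.63 with TPM. With a pseudocount of 0.1 the difference of 26050 from the median of the others was 4.06 for Ttc12, 3.997 for Rbm7, 4.19 for Npat and 4.24 for Cul5, and with TPM it was 3.90 for Rbm7. The median of all genes in 26044 moved from -0.13 to -0.28 with TPM. The causes were not tested.

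Leaving out tumors for these counts and medians was chosen after seeing the data. The members raised in 26043 were then 2 to 6 (6 without 26044), lowered in 26043 1 to 4 (4 without 26048), raised in 26044 5 to 9 (9 without 26043 or 26050), lowered in 26048 0 to 5 (5 without 26043 or 26050) and lowered in 26050 1 to 7 (7 without 26048). For the triple-mutant pair the count was 5 to 9 (9 without 26043) and for the double-mutant pair 1 to 19 (19 without 26048). With a tumor of the pair left out, the count is only of members raised in the tumor that remained, not in both. The highest running median of 26050 was 3.24 to 3.82. The tables hold no read depth, so the precision of a single low value is not known.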

Other observations

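Over all genes tested, 22 stood at least 3 log2 units above the highest of the other tumors in 26050. Of these, 10 were members of the segment, 1 was a gene of chromosome 9 that is not a member and 6 lay on chromosome 6. The count does not say whether that 1 gene lies inside or outside the borders of the segment. In the 5 Mb after the segment it was 26048 that stood apart by its median, with log2(FPKM + 1) 0.54 above the median of the other tumors over 55 genes, where 3 genes were raised in it by the 2-fold rule, and with -0.05, -0.12 and -0.28 in 26043, 26044 and 26050.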
